A study of Homo sapiens with 4 samples.

Results

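Notch signalling passes between touching cells. A ligand of the Delta-like or Jagged family on one cell binds a Notch receptor on the next, metalloproteases and gamma-secretase then cut the receptor, and the freed intracellular domain joins RBPJ and Mastermind proteins on DNA to switch on repressors of the HES and HEY families. In neural tissue these repressors hold back the factors that start neuronal differentiation, and in neuroblastoma cells active NOTCH3 is known to drive a mesenchymal cell state. The genes described here are 3 receptors (NOTCH1, NOTCH2, NOTCH3), 4 ligands (DLL1, DLL3, JAG1, JAG2) and 3 HES and HEY genes (HES1, HES6, HEY1), 10 of the 64252 rows of the count table. They are picked out by symbol, a rule that uses no measured value, although earlier results of these data were known when the set was drawn up, and each symbol matched 1 row. All 10 passed the filter on low counts, DLL1 through the libraries of 1 group alone, and 18775 genes were left to test.

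The 4 libraries come from SK-N-BE(2), a human neuroblastoma line with amplified MYCN, and were read by RNA sequencing. In 2 of them the cells carried a short hairpin RNA against CDK5RAP3 (shCDK5RAP3), a protein that works with the UFM1 ligase at the endoplasmic reticulum, and in the other 2 a control hairpin (shControl). The comparison asks how transcripts differed once CDK5RAP3 was lowered. The sources used here do not give how many hairpins were used, what they were or how long cells carried them. The labels leave unsaid whether replicates were grown apart, so each p-value covers only the spread between these libraries.

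Libraries held 28653689 and 30138393 counts in the shCDK5RAP3 group and 28721740 and 28755837 in the shControl group, so that a count of 0 allows up to 3 counts, or 0.101 to 0.105 CPM (counts per 1000000 counts of the library), by counting error alone. CDK5RAP3 itself had 1669 and 1689 counts in shCDK5RAP3 cells, against 2529 and 2866 in shControl cells, which leaves 62.1% of the control level. At the level of the transcript the knockdown was therefore partial, and protein was not measured here. All 10 markers of the noradrenergic state were detected. Of the markers of other cell types, the Schwann cell factor SOX10 and the T cell marker CD3E were at 0 in every library, but others of the same lists were read, such as the leukocyte gene PTPRC with 34 and 11 counts in shCDK5RAP3 cells, against 48 and 58 in shControl cells.

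Of the 10 Notch genes 2 passed the test, NOTCH3 with a fall and HES1 with a rise, and 8 did not. Across all genes tested, 41.5% passed at an edgeR adjusted p of 0.05, made up of 19.7% that were higher and 21.8% that were lower in shCDK5RAP3 cells. Set beside that background, 2 of 10 was not an excess. The count of Notch genes that passed was 1 without shCDK5RAP3 replicate 1 or without shCDK5RAP3 replicate 2, where that over all genes was 4836 and 3752 in place of 7792, and 3 without shControl replicate 2. The median log2 fold change of the 10 was 0.05, beside -0.0034 over all tested genes. For 8 of the 10 the shCDK5RAP3 and shControl libraries did not overlap, beside 71.4% of all tested genes. DLL1 is among these 8 and passed the filter on low counts only through the shCDK5RAP3 libraries. As the libraries are bulk RNA, fewer cells of a type and less RNA per cell cannot be told apart in any of these values.

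**Figure D1:**
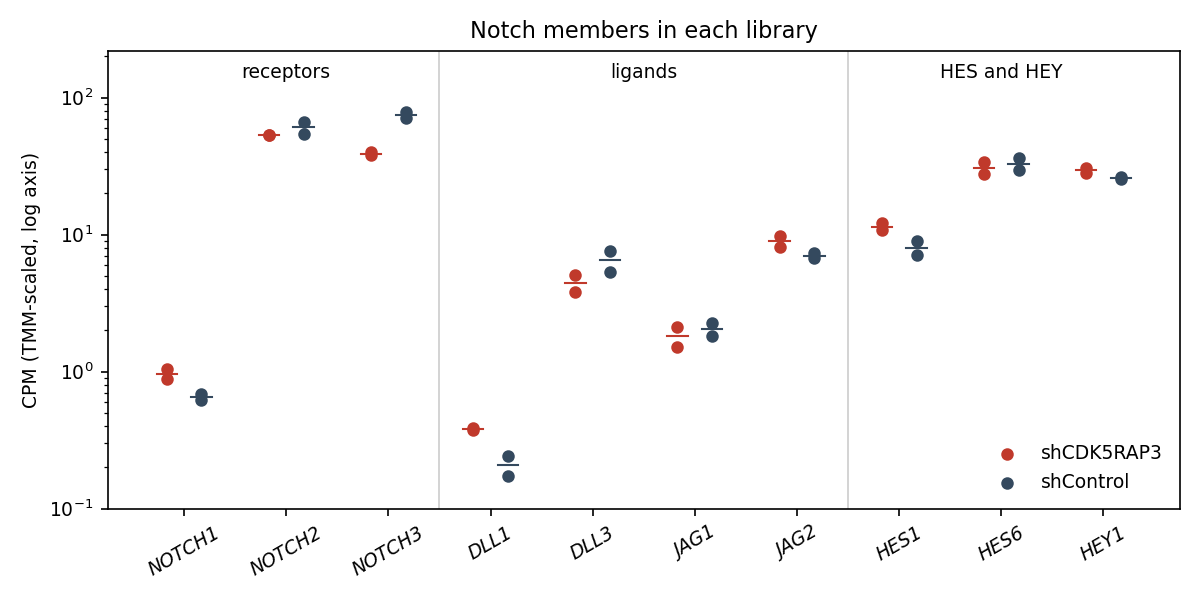
CPM (scaled by TMM factors, log axis) of the 10 Notch genes in each library, with shCDK5RAP3 points left of shControl points and a short line at each mean of 2 libraries. NOTCH3 is the clearest separation, at 40.1 and 37.9 CPM in shCDK5RAP3 cells against 78.9 and 70.9 in shControl cells, while NOTCH1 and DLL1 sit at about 1 CPM or less.

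Among the receptors NOTCH3 fell to 52.0% of its control level. NOTCH3 (ENSG00000074181, GRCh38 chromosome 19, 15159038 to 15200981, minus strand) encodes a receptor best known from vascular smooth muscle and, in neuroblastoma, from the mesenchymal state. It had 1145 and 1121 counts in shCDK5RAP3 cells, against 2286 and 2062 in shControl cells. The 2 shCDK5RAP3 libraries lay close together and well below both shControl libraries. This was 39.0 ± 1.56 CPM in shCDK5RAP3 cells against 74.9 ± 5.72 CPM in shControl cells (SD, n = 2 each), or a log2 fold change of -0.94 ± 0.08 (SE, edgeR adjusted p = 4.01e-05). The fall passed with each library left out in turn, with log2 fold changes from -1.02 to -0.87.

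NOTCH2 (ENSG00000134250, chromosome 1, 119911553 to 120069626, minus strand), the other abundant receptor, had 1523 and 1570 counts in shCDK5RAP3 cells, against 1936 and 1584 in shControl cells. Its groups did not overlap in CPM, but the shControl libraries differed more from each other than the lower of them did from the shCDK5RAP3 libraries. The log2 fold change was -0.19 with a 95% interval of -0.41 to 0.03 (edgeR adjusted p = 0.157). It passed without shControl replicate 2 (log2 fold change -0.33, edgeR adjusted p = 0.00652, within a range of 0.00652 to 0.789 over all alternatives). NOTCH2 has partial copies of near-identical sequence on the same chromosome, so its count is uncertain. One of them, NOTCH2NLA, had 110 and 110 counts in shCDK5RAP3 cells, against 62 and 120 in shControl cells.

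NOTCH1, the receptor most studied in T cell leukaemia, was almost silent here. NOTCH1 (ENSG00000148400, chromosome 9, 136494433 to 136545786, minus strand) had 30 and 26 counts in shCDK5RAP3 cells, against 20 and 18 in shControl cells. The groups did not overlap, yet at this depth the difference did not pass (log2 fold change 0.55, 95% interval -0.34 to 1.45, edgeR adjusted p = 0.297). NOTCH4, the remaining receptor gene of the family and known mainly from endothelium, had 86 and 103 counts in shCDK5RAP3 cells, against 58 and 74 in shControl cells. That difference did not pass either (log2 fold change 0.51, edgeR adjusted p = 0.127).

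Per kilobase of merged exon, the scale on which genes can be compared with each other, NOTCH3 held the highest level of the 4 receptors in every library. It stood at 12.9 ± 0.876 TPM (length-scaled counts per 1000000) in shCDK5RAP3 cells and at 26.0 ± 2.03 TPM in shControl cells, and NOTCH2 at 9.84 ± 0.309 TPM in shCDK5RAP3 cells and 11.8 ± 1.73 TPM in shControl cells (SD, n = 2 each). NOTCH4 followed with 1.03 ± 0.0770 TPM in shCDK5RAP3 cells and 0.760 ± 0.126 TPM in shControl cells. NOTCH1 came last with 0.289 ± 0.0444 TPM in shCDK5RAP3 cells and 0.206 ± 0.0164 TPM in shControl cells. The receptor level was thus divided more evenly in shCDK5RAP3 cells. NOTCH3 made up 54.4% and 52.8% of it there, against 66.4% and 67.9% in shControl cells, and NOTCH2 made up 40.4% and 41.4% in shCDK5RAP3 cells, against 31.4% and 29.2% in shControl cells. With 2 libraries a group an exact permutation test of such a share cannot go below p = 0.333, so no test is given. When the longest annotated transcript was taken as the length, NOTCH2 stood slightly above NOTCH3 in shCDK5RAP3 cells, at 47.9% against 46.1% of the receptor level.

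**Figure D2:**
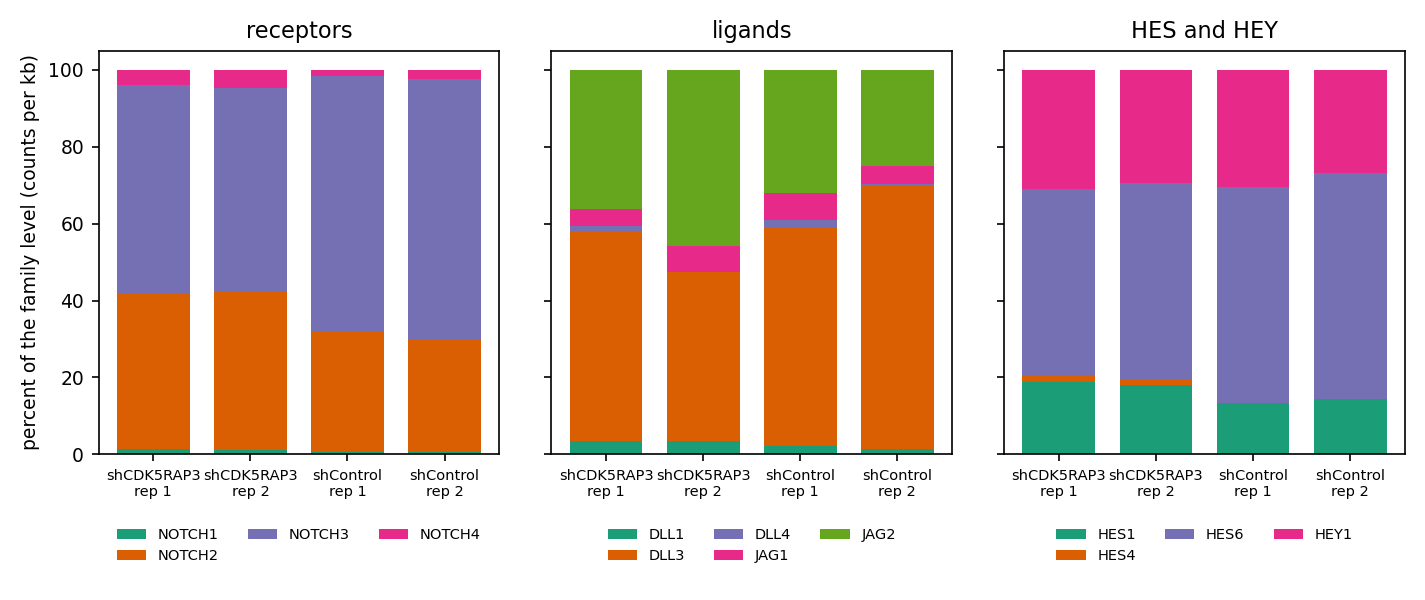
Percent of the summed level (counts per kilobase of merged exon) that each gene contributes to the receptors, the ligands and the HES and HEY genes, in the 2 shCDK5RAP3 libraries and then the 2 shControl libraries. The HES and HEY bars hold HES1, HES4, HES6 and HEY1 alone. The NOTCH3 segment is smaller in both shCDK5RAP3 libraries (54.4% and 52.8%) than in both shControl libraries (66.4% and 67.9%), and HES4 appears only in the shCDK5RAP3 bars.

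Fibroblast, noradrenergic and some Schwann cell markers were lower together with NOTCH3. Of all tested genes 21.8% were lower and 19.7% higher, which is the background for each count of markers here, and the lists are short. Of 7 fibroblast markers tested, 5 were lower and 1 higher in shCDK5RAP3 cells. Their summed level was 463 and 462 CPM there, against 745 and 736 CPM in shControl cells. In shCDK5RAP3 cells most of it was THY1, the marker that rose, at 282 and 292 CPM against 241 and 252 CPM in shControl cells. PDGFRB, among the 5, was at 47.0 and 39.2 CPM in shCDK5RAP3 cells, against 228 and 202 CPM in shControl cells. The noradrenergic markers summed to 4847 and 5009 CPM in shCDK5RAP3 cells, against 7703 and 8229 CPM in shControl cells, with 8 lower and 1 higher of 10. Most of that sum was MYCN, the amplified gene of this line, at 2810 and 2878 CPM in shCDK5RAP3 cells against 4669 and 4915 CPM in shControl cells. The Schwann cell markers summed to 17.4 and 17.1 CPM in shCDK5RAP3 cells, against 33.8 and 32.7 CPM in shControl cells, with 2 lower of 3 tested. These 2 were PMP22, with 451 and 439 counts in shCDK5RAP3 cells against 866 and 862 in shControl cells, and S100B, with 13 and 12 counts in shCDK5RAP3 cells against 55 and 58 in shControl cells. The endothelial cadherin CDH5 had 0 and 0 counts in shCDK5RAP3 cells, against 17 and 11 in shControl cells. CDH5 passed the filter on low counts only through the shControl libraries. The endothelial list as a whole, however, overlapped between the groups, at 1.61 and 2.03 CPM in shCDK5RAP3 cells against 2.24 and 1.44 CPM in shControl cells. PECAM1 had 1 and 0 counts in shCDK5RAP3 cells and 0 and 0 in shControl cells. The leukocyte markers, none of which passed of 3 tested, summed to 2.83 and 1.79 CPM in shCDK5RAP3 cells, against 3.28 and 4.06 CPM in shControl cells. The mesenchymal neuroblastoma markers did not move one way, with 3 higher and 4 lower of 11 tested. The 4 include AXL, which passed the filter on low counts only through the shControl libraries. AXL had 9 and 3 counts in shCDK5RAP3 cells, against 24 and 28 in shControl cells. The mesenchymal markers had a median log2 fold change of 0.0057. Their sum was 1938 and 1990 CPM in shCDK5RAP3 cells, against 2572 and 2562 CPM in shControl cells, most of it VIM, at 1459 and 1512 CPM in shCDK5RAP3 cells against 1972 and 1975 CPM in shControl cells. The part of any of these in the fall of NOTCH3 was not tested.

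The 5 genes whose profile over the 4 libraries lay nearest to that of NOTCH3, among 13219 candidates with a mean log2 CPM of at least 1, were RCOR1, ACSL1, FAM122B, ANKRD46 and GREB1. Their distances were 0.0122, 0.0235, 0.0440, 0.0450 and 0.0480 log2 CPM, taken over the libraries after centring each gene on its mean. RCOR1, the nearest, had 1107 and 1073 counts in shCDK5RAP3 cells, against 2187 and 1982 in shControl cells. With 4 libraries in 2 groups this likeness reflects little more than a similar fold change.

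None of the 4 ligands passed. Per kilobase, DLL3 and JAG2 were the most abundant of the Delta-like and Jagged ligands in these cells, and DLL1 and JAG1 were scarce. DLL3 is an atypical Delta-like protein that blunts Notch signalling inside the cell that makes it and is abundant in neuroendocrine tumours. DLL3 (ENSG00000090932, chromosome 19, 39498895 to 39508481, plus strand) had 144 and 113 counts in shCDK5RAP3 cells, against 154 and 222 in shControl cells. The lower shControl library was close to the higher shCDK5RAP3 library. The log2 fold change was -0.55 with a 95% interval of -1.08 to -0.02 before adjustment, and the adjusted test did not pass (edgeR adjusted p = 0.0926). Without shControl replicate 1 it did (log2 fold change -0.79, edgeR adjusted p = 0.0185, within a range of 0.0185 to 0.462 over all alternatives).

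JAG2 (ENSG00000184916, chromosome 14, 105140981 to 105168824, minus strand), a Jagged ligand that activates Notch on neighbouring cells, had 232 and 288 counts in shCDK5RAP3 cells, against 211 and 197 in shControl cells. Both shCDK5RAP3 libraries were above both shControl libraries, but the difference did not pass (log2 fold change 0.34, 95% interval -0.04 to 0.73, edgeR adjusted p = 0.136). JAG1 (ENSG00000101384, chromosome 20, 10637684 to 10673999, minus strand), the related ligand mutated in Alagille syndrome, had 43 and 63 counts in shCDK5RAP3 cells, against 66 and 53 in shControl cells. Its groups overlapped (log2 fold change -0.17, 95% interval -0.85 to 0.50, edgeR adjusted p = 0.677).

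DLL1 (ENSG00000198719, chromosome 6, 170282206 to 170306565, minus strand), the Delta-like ligand that activates Notch during neurogenesis, had 11 and 11 counts in shCDK5RAP3 cells, against 7 and 5 in shControl cells. Counts this low could not separate a change of either direction (log2 fold change 0.86, 95% interval -0.56 to 2.27). DLL1 passed the filter on low counts only through the shCDK5RAP3 libraries, so no p-value is given for it. DLL1 lies partly within the span of FAM120B on the opposite strand, but no exons of the pair overlap. Exons of JAG2 overlap those of AL512356.1 on the same strand and exons of JAG1 those of AL050403.2 on the opposite strand. As the sources used here do not name the strand setting of the counting, reads in these shared stretches cannot be assigned with certainty, and both partner genes were at 0 counts in every library. DLL4, the ligand known from endothelium, had 6 and 0 counts in shCDK5RAP3 cells, against 9 and 3 in shControl cells, and was not tested.

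Per kilobase DLL3 stood at 5.27 ± 1.17 TPM in shCDK5RAP3 cells and 8.06 ± 2.02 TPM in shControl cells. JAG2 stood at 4.33 ± 0.432 TPM in shCDK5RAP3 cells and 3.58 ± 0.193 TPM in shControl cells. These neighbours in the order lay within their spread of each other in shCDK5RAP3 cells, where DLL3 supplied 54.7% and 43.9% of the summed Delta-like and Jagged level, against 57.1% and 68.7% in shControl cells. Beneath them JAG1 was at 0.605 ± 0.130 and DLL1 at 0.365 ± 0.0193 TPM in shCDK5RAP3 cells, against 0.719 ± 0.115 and 0.209 ± 0.0503 TPM in shControl cells (SD, n = 2 each). The non-canonical Notch ligand DLK1, which lacks the receptor-binding domain of the Delta-like proteins and marks immature chromaffin and neuroblastoma cells, was far above all of them at 72.6 ± 2.76 TPM in shCDK5RAP3 cells and 76.5 ± 8.44 TPM in shControl cells. It did not differ beyond its spread (log2 fold change -0.01, 95% interval -0.19 to 0.18, edgeR adjusted p = 0.949). Of its relatives, DLK2 (-0.71) and DNER (0.05 on the log2 scale) did not pass either, with adjusted p-values of 0.129 and 0.954 by edgeR.

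**Figure D3:**
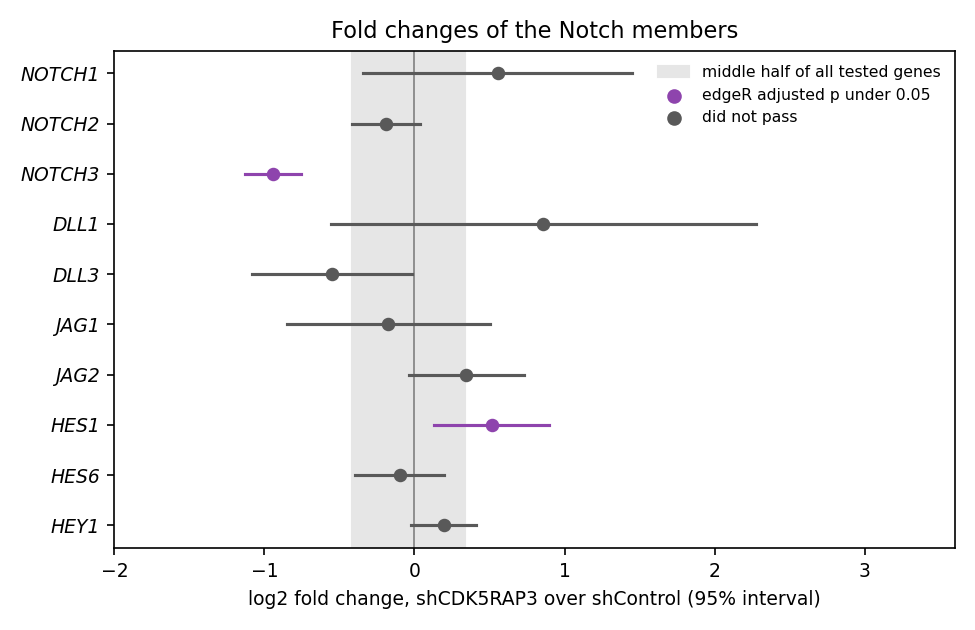
Log2 fold change of each Notch gene, shCDK5RAP3 over shControl, with its 95% interval. The grey band spans the middle 50% of all 18775 tested genes, from -0.42 to 0.33. NOTCH3 (-0.94) and HES1 (0.51) are the points that passed, and the wide intervals of NOTCH1 and DLL1 go with their low counts.

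HES1 rose 1.43-fold. HES1 is a basic helix-loop-helix repressor, the textbook target of the cut Notch receptor, and represses proneural genes as well as its own promoter. HES1 (ENSG00000114315, chromosome 3, 194136145 to 194138732, plus strand) had 309 and 357 counts in shCDK5RAP3 cells, against 204 and 261 in shControl cells. Both shCDK5RAP3 libraries were above both shControl libraries, although the gap between the nearest libraries of the groups was of the size of the gap within the shControl group. This was 11.4 ± 0.879 CPM in shCDK5RAP3 cells against 8.01 ± 1.36 CPM in shControl cells (SD, n = 2 each), or a log2 fold change of 0.51 ± 0.17 (SE, edgeR adjusted p = 0.0368). The call was lost without shCDK5RAP3 replicate 1 (edgeR adjusted p = 0.0953), shCDK5RAP3 replicate 2 (0.229) or shControl replicate 1 (0.173), and with no filter on low counts (0.160), within a range of 0.00983 to 0.229 over all alternatives.

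HES6, a relative that is thought to counteract HES1 and to favour neuronal differentiation, was the most abundant of the 3 per kilobase. HES6 (ENSG00000144485, chromosome 2, 238238267 to 238240662, minus strand) had 789 and 1004 counts in shCDK5RAP3 cells, against 857 and 1057 in shControl cells. In both groups the first replicate was the lower one, and the groups overlapped (log2 fold change -0.10, 95% interval -0.40 to 0.20, edgeR adjusted p = 0.580). HEY1 (ENSG00000164683, chromosome 8, 79764010 to 79767863, minus strand), a Notch target that pairs with HES1, had 804 and 915 counts in shCDK5RAP3 cells, against 736 and 762 in shControl cells. Both shCDK5RAP3 libraries were the higher ones, but the difference did not pass (log2 fold change 0.19, 95% interval -0.02 to 0.41, edgeR adjusted p = 0.139). Per kilobase HES6 stood at 46.9 ± 5.49 TPM, HEY1 at 28.4 ± 1.09 TPM and HES1 at 17.2 ± 0.847 TPM in shCDK5RAP3 cells. In shControl cells they kept that order, at 52.7 ± 7.52, 26.0 ± 0.5004 and 12.7 ± 2.13 TPM (SD, n = 2 each).

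HES4, a HES gene that mice lack, was read only in shCDK5RAP3 libraries. It had 17 and 15 counts there, against 0 and 0 in shControl cells, and was at least 5.33-fold higher with 3 counts per library taken as the floor. HES4 passed the filter on low counts only through the shCDK5RAP3 libraries, and not when a CPM of at least 1 was required in 2 libraries, so no p-value is given for it. HEY2, with 8 and 4 counts in shCDK5RAP3 cells against 0 and 0 in shControl cells, was too low to test. The remaining genes of these families were near silent. HES2 and HES5 were at 0 in all libraries, HES3 had 0 and 2 counts in shCDK5RAP3 cells, against 2 and 0 in shControl cells, and HEYL had 2 and 0 in shCDK5RAP3 cells, against 5 and 0 in shControl cells. HES7 had 2 and 8 counts in shCDK5RAP3 cells, against 7 and 23 in shControl cells.

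The promoter windows below, taken from RefSeq on GRCh38.p14 (250 bases before to 50 after the start of the gene), are shown for NOTCH3 and HES1, which passed, for HES4, which was read only in shCDK5RAP3 libraries, and for NRARP, a Notch target that rose and whose values follow. Capitals mark TGGGAA, the core of the site that RBPJ binds, searched on both strands.
HES1, chr3:194135898-194136197, plus strand: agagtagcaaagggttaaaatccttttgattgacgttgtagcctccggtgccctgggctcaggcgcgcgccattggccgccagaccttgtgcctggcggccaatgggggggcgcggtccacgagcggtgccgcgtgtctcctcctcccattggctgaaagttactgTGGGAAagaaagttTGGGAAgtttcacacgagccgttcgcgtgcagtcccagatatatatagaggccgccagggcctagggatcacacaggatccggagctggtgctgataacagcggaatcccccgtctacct
NRARP, chr9:137302222-137302521, minus strand: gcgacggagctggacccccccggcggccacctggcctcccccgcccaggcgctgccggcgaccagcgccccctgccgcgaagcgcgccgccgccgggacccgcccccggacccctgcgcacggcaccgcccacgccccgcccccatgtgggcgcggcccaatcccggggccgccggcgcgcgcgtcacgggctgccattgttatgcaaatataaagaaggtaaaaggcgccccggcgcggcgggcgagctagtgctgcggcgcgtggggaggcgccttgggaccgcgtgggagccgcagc
HES4, chr1:1000048-1000347, minus strand: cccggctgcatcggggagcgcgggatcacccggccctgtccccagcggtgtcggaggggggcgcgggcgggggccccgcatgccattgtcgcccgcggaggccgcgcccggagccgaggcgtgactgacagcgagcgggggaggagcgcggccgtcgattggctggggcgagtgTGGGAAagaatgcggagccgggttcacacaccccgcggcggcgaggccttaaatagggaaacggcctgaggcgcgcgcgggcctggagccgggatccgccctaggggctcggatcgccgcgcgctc
NOTCH3, chr19:15200946-15201245, minus strand: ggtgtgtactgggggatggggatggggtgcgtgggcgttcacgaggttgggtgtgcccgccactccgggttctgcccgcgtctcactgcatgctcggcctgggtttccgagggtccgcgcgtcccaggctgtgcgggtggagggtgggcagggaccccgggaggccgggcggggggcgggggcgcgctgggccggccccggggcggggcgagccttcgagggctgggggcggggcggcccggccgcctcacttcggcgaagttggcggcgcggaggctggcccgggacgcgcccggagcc
The HES1 window holds TGGGAA at 2 places on the strand of the gene, at -84 to -79 and at -70 to -65 counted from the start of transcription. The HES4 window holds it once, at -76 to -71, and the NRARP and NOTCH3 windows hold no match. Of all 35116 RefSeq windows of this length 24.0% have at least 1 match and 3.80% have 2 or more. Among the 7 Notch genes with a window (not DLL1, DLL3 or HEY1), HES1 was the only one with a match. The N-box word CACNAG, to which HES proteins bind, was present 4 times in the HES1 window on either strand, with no overlap with TGGGAA, once each in those of NRARP and NOTCH3 and never in that of HES4. Of the other Notch genes with a window, NOTCH1 held it 2 times and NOTCH2 once, and JAG1, JAG2 and HES6 held no match. At least 1 such match is present in 38.0% of all windows and 2 or more in 8.94%. These matches describe the letters of the windows only.

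Other reported Notch targets went both ways, with 5 higher and 2 lower of 9 tested, or 77.8% beside the 41.5% of all tested genes. The 5 include MYC, which passed the filter on low counts only through the shCDK5RAP3 libraries. MYC had 36 and 30 counts there, against 6 and 7 in shControl cells. NRARP, a feedback inhibitor that binds the cut receptor, had 642 and 636 counts in shCDK5RAP3 cells, against 214 and 244 in shControl cells. All shCDK5RAP3 values were more than 2-fold above the shControl values, with 22.0 ± 0.698 CPM in shCDK5RAP3 cells against 7.89 ± 0.703 CPM in shControl cells (SD, n = 2 each) and a log2 fold change of 1.48 ± 0.13 (SE, edgeR adjusted p = 3.92e-05). The inhibitor of differentiation ID3 (1.42) and the cyclin CCND1 (2.17) rose as well on the log2 scale, and the survival gene BCL2 (-1.23) fell. With NRARP these are the 4 members of the list with the largest change at a mean log2 CPM of at least 1. These genes answer to many other signals too, ID3 to bone morphogenetic proteins and CCND1 to growth factors. Without shCDK5RAP3 replicate 2 the falls of this list were 1.

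Around the receptors, 6 of 9 processing genes passed, 3 higher and 3 lower, with a median log2 fold change of -0.11. This is 66.7% beside the 41.5% of all tested genes. With no filter on low counts there were 0 rises beside the 3 falls. The gamma-secretase parts PSEN2, NCSTN and APH1B fell. PSEN2, a catalytic subunit, had 46 and 44 counts in shCDK5RAP3 cells, against 164 and 156 in shControl cells, or 28.1% of control (log2 fold change -1.83, edgeR adjusted p = 0.000225). Per kilobase PSEN2 stood at 1.28 ± 0.108 TPM in shCDK5RAP3 cells and 4.79 ± 0.195 TPM in shControl cells (SD, n = 2 each). The substrate-binding subunit NCSTN (-0.69) and the subunit APH1B (-0.89) fell, while the metalloprotease ADAM17 (0.46), which can make the first cut, rose. With either shCDK5RAP3 library left out there was 1 rise in place of 3, beside 3 falls.

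Of 8 glycosylation genes tested, which decorate the receptor's EGF-like repeats, 2 fell and 0 rose. As a share of the list, this was below the 41.5% of all tested genes that passed and near the 21.8% that fell. The xylosyltransferases XXYLT1 (-0.52) and GXYLT2 (-0.49) were lower, and the Fringe enzymes LFNG (-0.31) and RFNG (-0.22) did not pass. Without shCDK5RAP3 replicate 2 neither xylosyltransferase passed (edgeR adjusted p = 0.0531 for XXYLT1 and 0.0537 for GXYLT2). In the coactivator list 4 of 9 fell and 0 rose, with a median log2 fold change of -0.16. The share that passed, 44.4%, was near the 41.5% of all tested genes. With no filter on low counts 1 fell in place of the 4. The 4 were the Mastermind genes MAML2 and MAML3, the acetyltransferase KAT2A (-0.28) and the cofactor SNW1 (-0.28). MAML2 had 853 and 766 counts in shCDK5RAP3 cells, against 1439 and 1133 in shControl cells (log2 fold change -0.67, edgeR adjusted p = 0.00288), and MAML3 had 1552 and 1473 in shCDK5RAP3 cells, against 2311 and 1931 in shControl cells (-0.49, adjusted p = 0.00354 by edgeR). Without shCDK5RAP3 replicate 2 none of the 4 passed (edgeR adjusted p = 0.0868, 0.0966, 0.0769 and 0.101 for MAML2, MAML3, KAT2A and SNW1), nor did KAT2A (0.149) and SNW1 (0.0699) without shCDK5RAP3 replicate 1. Without shControl replicate 1 there were 2 rises beside the 4 falls. RBPJ itself, named after its values were seen, had 5231 and 5268 counts in shCDK5RAP3 cells, against 5020 and 4488 in shControl cells, and did not pass (log2 fold change 0.14, edgeR adjusted p = 0.154).

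The corepressor list, whose products keep RBPJ targets or HES targets off, had 2 rises and 4 falls of 15 tested. The share that passed, 40.0%, was near the 41.5% of all tested genes. The deacetylase HDAC3 fell furthest, with 1062 and 1100 counts in shCDK5RAP3 cells, against 2294 and 2257 in shControl cells (log2 fold change -1.08, edgeR adjusted p = 9.29e-06). The Groucho-type corepressor TLE4 (-0.41) and L3MBTL3 (-0.42) fell and the demethylase KDM5A (0.49) rose. The call of L3MBTL3 was lost with upper-quartile factors (edgeR adjusted p = 0.0551), with no filter on low counts (edgeR, 0.152) and with DESeq2 (DESeq2 adjusted p = 0.0723). That of KDM5A was lost with no filter on low counts (edgeR adjusted p = 0.0645). Neither call held with every library left out in turn. In those fits the log2 fold change ran from -0.55 to -0.29 for L3MBTL3 and from 0.36 to 0.62 for KDM5A. The list had 1 rise and 2 falls without shCDK5RAP3 replicate 1, 0 rises and 2 falls without shCDK5RAP3 replicate 2, and 4 rises and 3 falls without shControl replicate 1. With the replicate number as a block it had 6 rises and 4 falls.

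Of 20 genes of endocytosis and ubiquitin control, 13 passed, 6 higher and 7 lower, or 65.0% beside the 41.5% of all tested genes. MIB1 and MIB2 are ubiquitin ligases that act on Delta-like and Jagged proteins, MIB1 being the one required for ligand activity in mice. MIB1 had 872 and 1042 counts in shCDK5RAP3 cells, against 2068 and 1788 in shControl cells (log2 fold change -1.02, edgeR adjusted p = 9.04e-05). MIB2 had 1632 and 1715 counts in shCDK5RAP3 cells, against 774 and 957 in shControl cells (log2 fold change 0.95, edgeR adjusted p = 0.000144). The ligases NEURL1 (-1.01) and DTX3L (-0.96) fell, the call of NEURL1 being lost without shCDK5RAP3 replicate 2 (edgeR adjusted p = 0.0973). Chosen after their values were seen, NEURL1B (0.69) and the receptor antagonist NUMB (0.42) rose, and FBXW7 (-0.43), which marks the cut receptor for destruction, fell.

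In the list of neural basic helix-loop-helix factors and their partners, which holds ID2 and ID4, 5 rose and 4 fell of 12 tested. The median log2 fold change was 0.05. The 9 that passed made up a larger share of their list than the 41.5% over all tested genes. ID2, which binds and disables such factors, had 3880 and 4467 counts in shCDK5RAP3 cells, against 811 and 900 in shControl cells (log2 fold change 2.28, edgeR adjusted p = 5.21e-07). The proneural factor NEUROD1 had 144 and 131 counts in shCDK5RAP3 cells, against 36 and 34 in shControl cells (1.97, adjusted p = 0.000241 by edgeR), and ATOH8 (1.63) rose while TWIST1 (-0.57) fell. The 5 rises include NEUROG2, which would not have passed the filter on low counts through the shControl libraries alone. NEUROG2 had 66 and 67 counts in shCDK5RAP3 cells, against 10 and 8 in shControl cells.

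**Figure D4:**
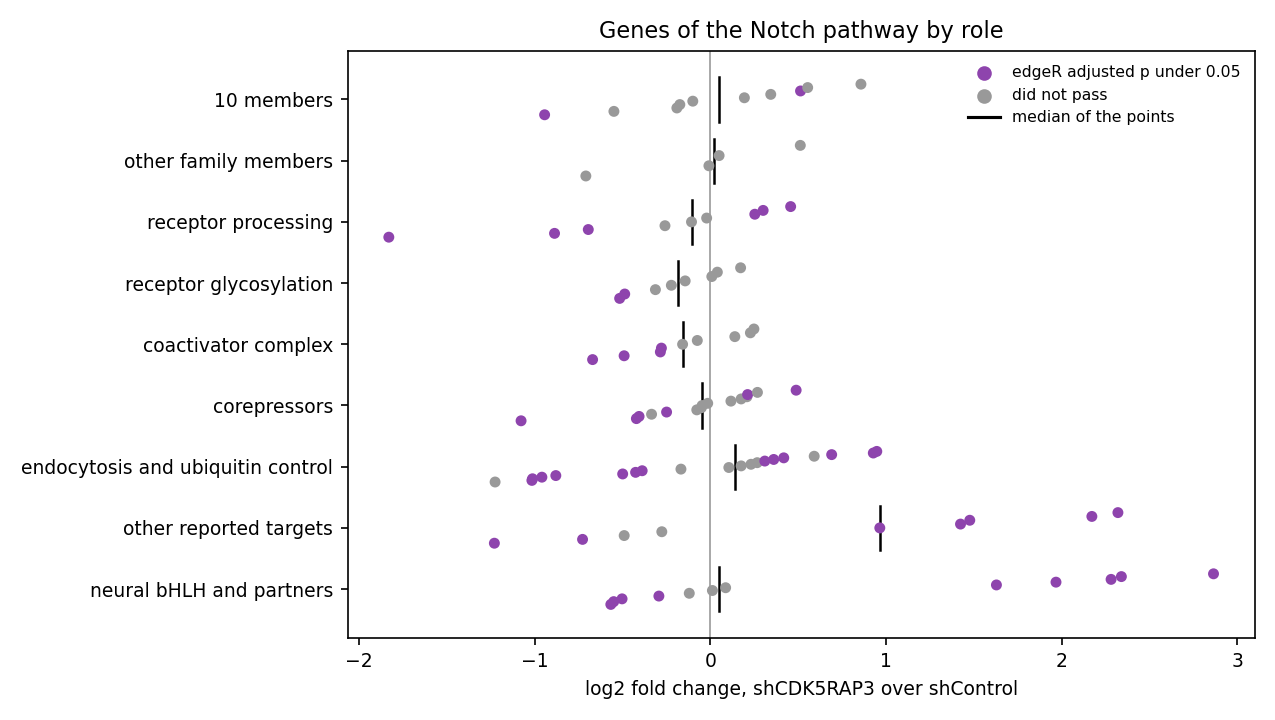
Log2 fold change, shCDK5RAP3 over shControl, of each tested gene of the Notch lists by role, with purple points for an edgeR adjusted p under 0.05 and a black line at each median. HES4 is left out of the plot and of its list's line because it was at 0 in shControl libraries. Of the 9 other reported targets 5 are purple to the right of 0, MYC among them, and 2 to the left. The coactivators that passed all lie to the left, and they are 44.4% of their list, beside 41.5% of all tested genes.

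Over these lists together 48 of 87 tested genes passed, 22 higher and 26 lower, or 55.2% beside the 41.5% of all tested genes, with a median log2 fold change of -0.02. The counts include HES4, and the rises also include MYC and NEUROG2. None of these genes would have passed the filter on low counts through the shControl libraries alone. The lists were described by these counts alone and no test of the lists was made. Without shCDK5RAP3 replicate 2 the falls numbered 14.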

How the data were processed

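The data are RNA-seq counts of SK-N-BE(2) cells, 2 shCDK5RAP3 and 2 shControl libraries, grouped by the sample titles. The counts were deposited by the authors as whole numbers, 1 table with a row per Ensembl gene and no scaling between libraries. Its columns were matched to samples by the labels' descriptions. HISAT2 2.2.0, StringTie and build hg38 are named per the submitters' processing notes. The sources used here do not give the annotation release, the strand setting or the treatment of reads mapping to several places. Symbols, positions and merged exon lengths came from GENCODE 29 (GRCh38), which matched 56591 of 64252 identifiers. Where a symbol has several rows the one with the highest mean count is used. The other 7661 held 1.82% to 1.90% of a library's counts and stayed in library sizes and tests.

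All genes were fitted with edgeR 4.0.16 in R 4.3.3 (TMM factors, default filter by group, quasi-likelihood test, Benjamini-Hochberg adjustment, threshold 0.05), with no replicate block. Log2 fold changes are shCDK5RAP3 over shControl, and the standard error is the log2 fold change over the root of the F statistic. The 95% intervals use the test's degrees of freedom and are not adjusted. CPM use TMM-scaled library sizes. TPM are counts per kilobase of merged exon, scaled to the same total in every library over rows with a length. The edgeR and DESeq2 1.42.0 fits were tested on simulated data. Alternatives were other scaling factors, other filters, DESeq2, a robust fit, a replicate block, rows summed by symbol and each library left out. The other length was added after seeing the data.

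The members and lists were chosen with earlier results of these data known. The genes named by rule are the 10 members, all other members of the same families and, of each other list, up to 4 tested genes with the largest absolute change at a mean log2 CPM of at least 1. Outside this rule, RBPJ, NEURL1B, NUMB and FBXW7 were named after their values were seen, and MYC and NEUROG2 for how they passed the filter. CDK5RAP3, single cell type markers, genes nearest NOTCH3 in profile, and overlapping or copied genes of members are named as well. KYAT1, entered among the corepressors in error, was removed after its values were seen. Values of some list genes are not reported here, although the lists' counts and medians include them.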

Additional observations from a re-analysis of the deposited data

How the results depend on the processing

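NOTCH3 and CDK5RAP3 kept their direction and their side of the threshold under all alternatives run, as did NOTCH1, DLL1, JAG2 and HEY1, which did not pass, except that NOTCH1 and DLL1 were not tested when a CPM of at least 1 was required in 2 libraries. With no filter on low counts 4488 genes passed in place of 7792 (1966 higher and 2522 lower), and 1 Notch gene passed in place of 2. HES1 was lost (log2 fold change 0.50, edgeR adjusted p = 0.160). So were the calls of 7 of the other named genes, ADAM17, MAML2, MAML3, KAT2A, KDM5A, L3MBTL3 and NEURL1. Leaving out each library in turn gave 3752 to 7329 genes (1556 to 3516 higher, 2196 to 3813 lower), 1 to 3 Notch genes and 14 to 28 falls over the pathway lists. Over these same fits the log2 fold change ran from 0.35 to 0.70 for HES1, from -0.33 to -0.038 for NOTCH2, from -0.79 to -0.27 for DLL3, from -0.45 to 0.063 for JAG1, from -0.26 to 0.053 for HES6, from -0.12 to 0.11 for DLK1 and from -0.40 to 0.69 for DNER, the last 4 changing sign without passing. DLK1, at -0.01, was at 0.0013 with RLE size factors and with DESeq2 and at 0.023 with upper-quartile factors, and passed in none of them. In each fit without 1 library the lone one left in its group is assumed to vary like the other group. Equal replicate numbers do not pair these libraries in the labels, and over 18775 genes the difference between replicates 1 and 2 in shCDK5RAP3 correlated with that in shControl at 0.0534. With a replicate block NOTCH2 passed (log2 fold change -0.18, edgeR adjusted p = 0.0469) and 9150 genes in all. With the longest transcript as the length NOTCH3 made up 46.1% of the receptor level in shCDK5RAP3 cells and 60.2% in shControl cells, and NOTCH2 47.9% and 37.0% in these groups. With that length HES6 made up 55.7% of the summed level of HES1, HES4, HES6 and HEY1 in shControl cells. The cause of these changes was not tested. Depth limits NOTCH1 and DLL1, whose counts of 5 to 30 leave intervals wider than 1 log2 unit. Those of JAG1 (-0.85 to 0.50) and DLL3 (-1.08 to -0.02) were wider than that as well.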
